A study of Mus musculus with 42 samples.

Results

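Gene expression in quadriceps muscle was compared with that in visceral fat of wild-type female C57BL/6 mice at 35 weeks of age, the age given by the labels (the study's methods give a slightly higher one). Each tissue was measured on 4 one-colour arrays, which are 8 of the 42 arrays of the series and were chosen by their titles alone, so that no measured value entered the choice. The mice carried no deletion, and the labels name no treatment. The series also holds liver, and muscle and fat of wild-type mice at 8 weeks and of Akt1+/- mice, which have 1 working copy of the gene for the kinase Akt1, at both ages. These other group pairs gave 20 muscle and fat arrays on which the same difference was measured again. The quadriceps is a limb muscle of mixed fibre types, and the labels do not name the visceral depot. They also do not say whether replicates came from separate mice or from pools (the study's methods give fewer mice a group than there are arrays here), or whether a muscle and a fat array of the same number came from 1 mouse, so the p-values measure the spread between these arrays. All 4 arrays of a tissue lay on 1 slide, so slide and tissue cannot be told apart among the 8 arrays.

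Skeletal muscle is made mainly of long multinucleate fibres packed with sarcomeres, in which myosin thick filaments pull on actin thin filaments when calcium leaves the sarcoplasmic reticulum. Fast fibres draw mostly on glycogen and phosphocreatine, and slow fibres on mitochondrial oxidation of fatty acids and glucose. Visceral fat is made mainly of adipocytes, which take up, synthesise and release lipid around a large droplet and secrete hormones, and it is covered by mesothelium and holds many macrophages.

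Levels are given as log2 of the processed signal relative to the 75th percentile of the array, and differences as muscle minus fat on that scale, so that 1 unit is a 2-fold difference. A gene was called when the adjusted p of limma was below 0.05 and the difference was at least 2-fold. Where a gene was well above background on only some arrays of a tissue, the size of its difference rests in part on values at background. The tissue labels were checked first. All 10 markers of skeletal muscle fibres were called higher in muscle, with a median difference of 11.01, against 23.3% of all genes tested, and all 10 adipocyte markers were called higher in fat, with a median of −4.87 (−4.64 with the gene that is dim in muscle at its bound), against 29.1% of all. Neither tissue was free of the other's markers. Of the muscle fibre markers 9 of 10 were well above background on all 4 fat arrays, and of the adipocyte markers 9 of 10 on all 4 muscle arrays. The fibre markers' signal, summed relative to the 75th percentile, ran from 6729 to 7121 on the muscle arrays and from 28.1 to 57.9 on the fat arrays. For the adipocyte markers the sum ran from 2146 to 2463 on fat and from 224 to 279 on muscle. Only Adrb3, the adipocyte's β3-adrenergic receptor, was not well above background on any muscle array. In whole tissue, fewer cells of a type and less RNA per cell cannot be told apart.

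Arrays of 1 tissue were alike, with a correlation across probes of 0.985 to 0.993 within muscle and 0.987 to 0.990 within fat, against 0.782 to 0.799 between the tissues. The 75th percentile of the processed intensity was 383 to 427 on muscle and 734 to 795 on fat, and 60.3 to 65.0% of probes in muscle and 64.2 to 68.6% in fat were well above background. No probe was saturated. The 100 brightest probes held 28.9 to 29.3% of the summed signal on muscle arrays and 20.7 to 21.4% on fat arrays. The number of arrays limits the precision.

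Most genes differed between the tissues. Of 18474 genes tested, 15329 (83.0%) had an adjusted p below 0.05, with 7504 (40.6%) higher in muscle and 7825 (42.4%) higher in fat. With the 2-fold threshold 9684 (52.4%) were called, 4302 (23.3%) higher in muscle and 5382 (29.1%) higher in fat. The median difference over all genes was −0.04 and the median size 1.07, against a median SD between arrays of 0.17 within each tissue. In 14503 genes (78.5%) the 4 muscle and 4 fat values did not overlap, with 38.8% of genes higher in muscle and 39.7% higher in fat. Scaling to the array's median in place of its 75th percentile moved every difference up by 0.22, and genes higher in muscle made up 53.2% of the calls in place of 44.4%.

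The calls higher in muscle were fewer but reached further. At a difference of at least 2 log2 units there were 1785 genes higher in muscle and 2699 higher in fat, at 5 units 366 and 176, and at 8 units 157 and 5. Of these, 126 and 66 at 5 units and 52 and 5 at 8 units were not well above background on any array of the lower tissue. The sizes of their differences are not exact. Past 10 units there were 87 genes higher in muscle and 1 higher in fat. That gene was Upk3b, which encodes a uroplakin of mesothelium and urothelium, and it was not well above background on any muscle array. In the plot of levels the 87 genes higher in muscle form the upper left edge. Of them, 25 were not well above background on any fat array.

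**Figure D1:**
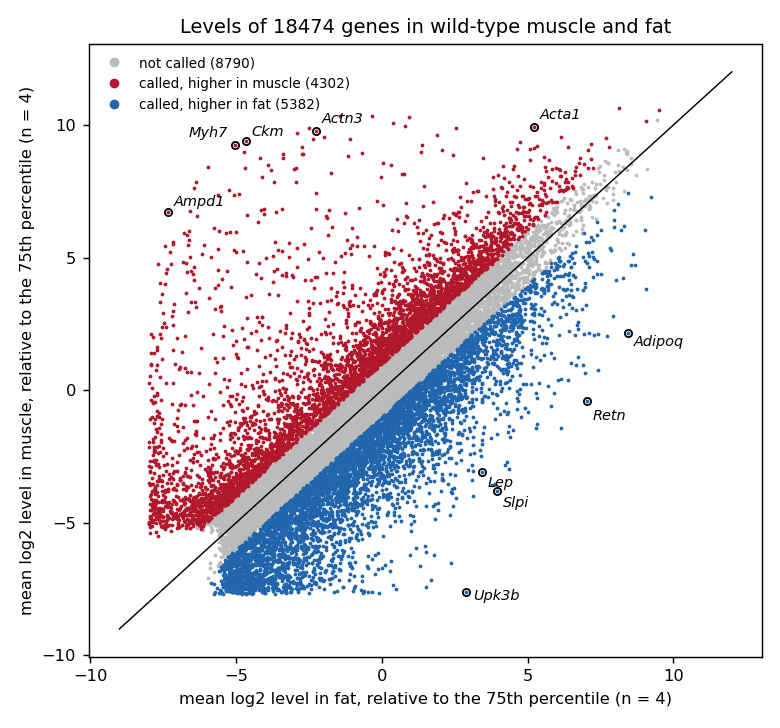
Mean log2 level of each tested gene in fat (x axis) and muscle (y axis), relative to the 75th percentile of the array (n = 4 arrays per tissue), with genes called higher in muscle in red and higher in fat in blue and the line of equal level. The 4302 red genes reach farther from the line than the 5382 blue ones, with 157 against 5 genes past a difference of 8. Of these, 52 red and all 5 blue genes were not well above background on any array of the lower tissue.

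Among genes well above background on all 8 arrays, the 10 largest differences toward muscle all belonged to the contractile machinery or the energy supply of muscle fibres. Myoz1 (calsarcin-2, a Z disc protein of fast fibres; probe at chr14:19437813-19437872 on mm8) had levels of 8.81, 8.80, 8.53 and 8.85 on the muscle arrays and −2.90, −4.60, −4.29 and −4.85 on the fat arrays, a difference of 12.91 ± 0.39 (SE; adjusted p = 2.86e-08). Muscle values lay within a narrow band, while fat replicate 1 was well above the other fat arrays. The others were Myom2 (an M band protein, 12.60), Tnnt3 (fast troponin T, 12.41), Mylk2 (skeletal myosin light chain kinase, 12.39), Ankrd2 (a stretch-responsive Z disc protein, 12.31), Myh1 (myosin IIx, 12.29), Nrap (a protein of myofibril assembly, 12.16), Pvalb (parvalbumin, the calcium buffer of fast fibres, 12.13), Pgam2 (muscle phosphoglycerate mutase, 12.08) and Actn3 (the fast-fibre α-actinin, 12.03).

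Among genes well above background on all 8 arrays, the 10 largest differences toward fat were smaller and of more mixed function. Slpi, a secreted protease inhibitor (probe at chr2:164045554-164045613 on mm8), had levels of −2.66, −3.15, −4.65 and −4.75 in muscle and 4.12, 3.83, 3.88 and 3.98 in fat, a difference of −7.75 ± 0.46 (SE; adjusted p = 1.05e-06). It varied more among muscle arrays than among fat arrays, and the groups were far apart. It was followed by Gsta3 (a glutathione S-transferase, −7.56), Retn (the hormone resistin, −7.45), Sucnr1 (the succinate receptor, −7.43), Ces1f (a carboxylesterase, −7.35), Aldh1a7 (an aldehyde dehydrogenase, −7.35), Msln (mesothelin, −7.03), Acp5 (tartrate-resistant acid phosphatase, made by macrophages, −7.02), Krt7 (a keratin of simple epithelia, −6.81) and Rspo1 (a secreted enhancer of Wnt signalling, −6.70). Retn and Msln are an adipocyte and a mesothelial marker.

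Contractile proteins were described by role, from lists of thick filament, thin filament, Z disc and excitation-contraction coupling genes. Of their 69 members, 68 were called higher in muscle. All 18 thick filament genes were called higher there, with a median difference of 11.11. Myh4, myosin IIb of the fastest fibres (probe at chr11:67075497-67075556 on mm8), stood at 10.26, 10.37, 10.36 and 10.38 in muscle and at 1.32, −0.70, −0.24 and −1.71 in fat, a difference of 10.68 ± 0.55 (SE; adjusted p = 4.51e-07). Myh7, the slow myosin heavy chain, stood at 9.01, 9.35, 9.40 and 9.15 against −3.91, −5.52, −5.02 and −5.69, a difference of 14.26 ± 0.36 (adjusted p = 1.23e-08), and it was well above background on 2 of the 4 fat arrays. The muscle values of both myosins were close together, and the fat values were again led by replicate 1. Ttn (titin, the spring of the sarcomere, 13.06) and Mybpc2 (fast myosin-binding protein C, 10.56) were also called. Myh3, the embryonic myosin, was at least 88.4-fold higher in muscle, since none of the fat arrays had it well above background. Myosin heavy chain genes are near-identical copies, so the probes of Myh1, Myh2, Myh4, Myh8 and Myh6 may share signal, and the level of a given copy is uncertain. Other probes of Myh1 and of Neb gave smaller differences, 6.35 and 7.27.

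In the thin filament 15 of 16 genes were called higher in muscle and 1 in fat, with a median of 9.17 (8.88 with the dim gene at its bound). Tnni2, the fast inhibitory troponin, was at 10.12, 10.09, 10.05 and 10.09 in muscle and at 2.06, 0.14, 0.22 and −0.83 in fat, a difference of 9.69 ± 0.53 (SE; adjusted p = 6.11e-07). The muscle arrays differed by less than 0.1, the fat arrays by several units. Neb (nebulin, the ruler of the thin filament) had a difference of 11.54. The actins differed less. Acta1, skeletal α-actin, was at 9.96, 9.97, 9.91 and 9.90 against 5.41, 4.67, 5.01 and 5.81, a difference of 4.71, and Actc1, cardiac α-actin, had 1.13 ± 0.23 (adjusted p = 0.00168). The value of Actc1 was below 2-fold with normexp and quantile normalization (0.58) and without fat replicate 3 (0.95). Actin transcripts are close copies too and their probes may share signal. Tpm3, the slow tropomyosin, was the member called higher in fat, at −1.57 by the probe with its highest mean, while another of its probes gave 4.66, so that its direction depended on the probe.

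All 17 Z disc genes were called higher in muscle, with a median of 11.78. Myot, myotilin, stood at 7.69, 7.89, 7.85 and 7.89 in muscle and at −4.45, −6.60, −6.67 and −7.78 in fat, where it was well above background on replicate 1 alone, so its fitted difference of 14.20 ± 0.61 (SE; adjusted p = 1.63e-07) rests in part on values at background. Actn2 (α-actinin-2) had 12.88, Des (desmin, the intermediate filament that ties Z discs together) 6.22, and Cryab (αB-crystallin, a chaperone also made outside muscle) 4.34 by 1 probe and 0.00 by another.

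All 18 genes of excitation-contraction coupling were called higher in muscle, with a median of 9.88. Cacna1s, the voltage sensor of the T tubule, was at 8.95, 8.92, 8.76 and 8.99 in muscle and −2.47, −3.23, −2.60 and −2.70 in fat, a difference of 11.66 ± 0.16 (SE; adjusted p = 1.09e-09). Atp2a1, the calcium pump of fast fibres, was at 8.31, 8.32, 8.23 and 8.46 against −2.98, −2.94, −2.91 and −3.24, a difference of 11.35 ± 0.10 (adjusted p = 3.24e-10). For these genes the groups were far apart, and fat replicate 1 did not stand out. Casq1, the calcium store protein calsequestrin of fast fibres, was at least 2572-fold higher in muscle and not well above background on any fat array. Hrc (a calcium-binding protein of the reticulum) had 12.78, Ryr1 (the calcium release channel) 9.93 by 1 probe and 0.98 by another, and Sln (sarcolipin, which restrains the pump) 10.61 ± 0.97, with the fat arrays between −7.94 and −3.26. Atp2a2, the pump of slow fibres and other cells, had 3.80, and another of its probes −1.18.

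The promoters of 3 of these genes and of the fat gene Plin1 are shown because they hold the letters of motifs named after factors of muscle and fat; they were chosen after the search. Each is the 250 bases before the RefSeq start on GRCm38.p6, on the gene's strand: Myh4 at chr11:67237562-67237811 (+), Casq1 at chr1:172219896-172220145 (−), Pvalb at chr15:78206401-78206650 (−) and Plin1, the perilipin of the adipocyte's droplet, at chr7:79732777-79733026 (−). Capitals mark the E-box CAGCTG bound by myogenic bHLH factors, the MEF2 motif and the CArG box of serum response factor, and in Plin1 the C/EBP motif TTNNGCAAT, read on either strand.
Myh4: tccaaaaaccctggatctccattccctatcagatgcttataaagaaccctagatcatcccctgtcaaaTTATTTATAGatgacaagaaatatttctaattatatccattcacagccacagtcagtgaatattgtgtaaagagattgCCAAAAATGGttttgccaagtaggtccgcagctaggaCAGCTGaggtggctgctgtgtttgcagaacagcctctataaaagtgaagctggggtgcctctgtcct
Casq1: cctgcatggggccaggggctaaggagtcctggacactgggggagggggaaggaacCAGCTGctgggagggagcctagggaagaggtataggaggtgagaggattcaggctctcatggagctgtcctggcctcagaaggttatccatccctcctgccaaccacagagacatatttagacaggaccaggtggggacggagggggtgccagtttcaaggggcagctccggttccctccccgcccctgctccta
Pvalb: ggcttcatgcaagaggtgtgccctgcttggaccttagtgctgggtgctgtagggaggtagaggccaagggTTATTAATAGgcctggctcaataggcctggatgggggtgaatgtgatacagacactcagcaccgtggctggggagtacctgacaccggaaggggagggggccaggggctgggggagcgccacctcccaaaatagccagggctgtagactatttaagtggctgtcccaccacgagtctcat
Plin1: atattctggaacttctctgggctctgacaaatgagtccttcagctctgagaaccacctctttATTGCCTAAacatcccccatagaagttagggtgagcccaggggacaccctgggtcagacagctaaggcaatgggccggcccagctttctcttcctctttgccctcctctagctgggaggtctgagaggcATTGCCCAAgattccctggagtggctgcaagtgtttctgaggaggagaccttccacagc

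Counted from the start, the MEF2 letters of Myh4 begin at −182, its CArG box at −104 and its E-box at −67. Of the 68 contractile genes called higher in muscle, 47 matched a RefSeq promoter, and of these 38.3% held the E-box, 21.3% the MEF2 motif and 12.8% the CArG box. Over all 27025 genes with a promoter of that length the shares were 14.7, 3.42 and 1.62%. The C/EBP motif was in 2 of the 47 contractile genes (4.26%), against 2.24% of all. It was in 2 of the 31 matched lipid genes of 40 called higher in fat (6.45%). These shares rest on 2 genes each, and Plin1, shown after the search, is among the lipid genes. None of those lipid genes held the MEF2 or CArG letters, and 16.1% held the E-box. The GC box GGGCGG, common to many promoters, was in 38.3% of the contractile, 51.6% of the lipid and 35.4% of all genes. The MEF2 motif and the CArG box are both rich in A and T and can overlap. Some genes have more than 1 promoter in the table, and a match is a description of letters, not of binding.

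Most of the contractile genes were also measured above background in fat. Of the 68, 46 were well above background on all 4 fat arrays and 6 on none. Fat replicate 1 was the highest fat array for 41 of the 68, and replicates 2, 3 and 4 for 8, 8 and 11. Their median level was −2.42, −3.16, −2.98 and −3.74 on fat replicates 1 to 4, and 6.95, 7.12, 7.09 and 7.11 on the muscle arrays. Their median SD was 0.49 between fat arrays and 0.12 between muscle arrays. Without fat replicate 1 the calls over all genes were 4321 and 5284. Whether muscle RNA in the fat samples has a part in these levels was not tested.

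**Figure D2:**
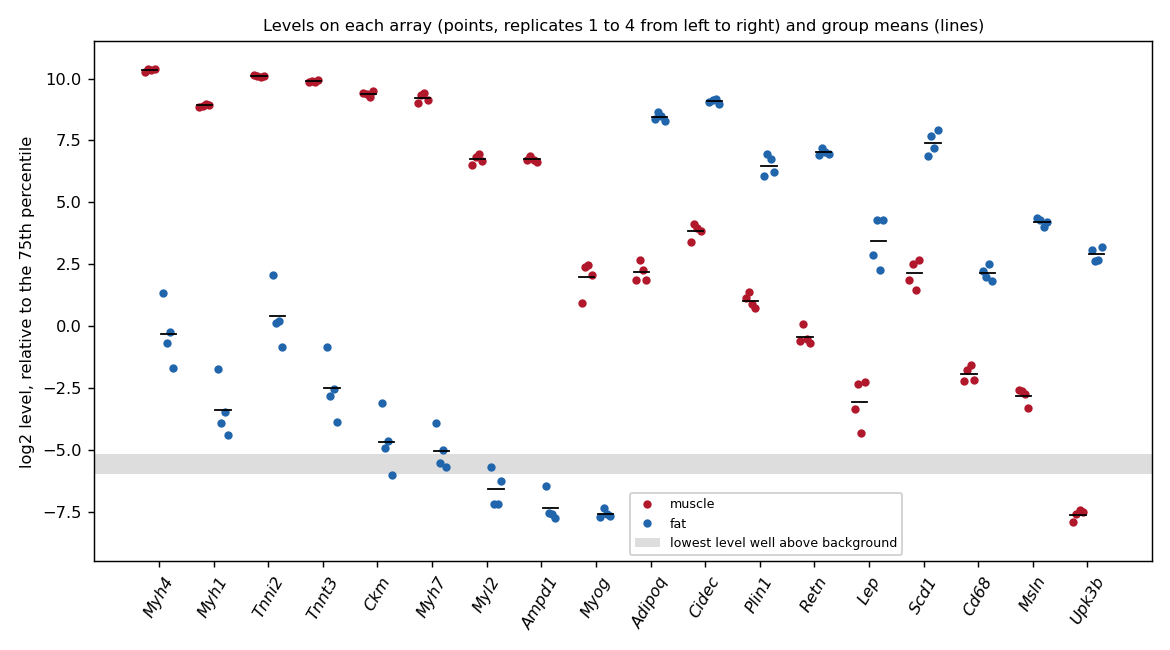
Log2 level, relative to the 75th percentile, of 18 genes on each of the 4 muscle (red) and 4 fat (blue) arrays, with group means as lines and the range of the lowest level well above background in grey. The muscle genes at left were tight in muscle and spread in fat, with fat replicate 1 highest for Myh4, Tnni2, Tnnt3 and Ckm, and no gene shown has overlapping groups.

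Genes of the neuromuscular junction, where the motor nerve meets the fibre, were called higher in muscle in 9 of 12 cases and higher in fat in 2, with a median of 2.04. Chrna1, the α subunit of the acetylcholine receptor, was at 2.38, 2.62, 2.40 and 2.37 in muscle and not well above background on any fat array, at least 276-fold higher in muscle. Rapsn, which clusters the receptor, was at least 114-fold higher and Musk, its receptor kinase, at least 7.68-fold higher. Utrn (utrophin) had a difference of −2.25 and Agrn (agrin, the nerve's signal to Musk, also a basement membrane protein) −1.07, and these were the members called higher in fat.

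In the dystrophin complex, which ties the cytoskeleton to the matrix, 11 of 15 genes were called higher in muscle and 1 in fat, with a median of 1.79. Sgca (α-sarcoglycan) had 10.22 ± 0.17 and Cav3 (muscle caveolin) 9.58 ± 0.29, while Dmd, dystrophin itself, was at 1.69, 1.33, 1.43 and 1.43 in muscle and −1.54, −1.55, −1.62 and −1.39 in fat, a difference of 2.99 ± 0.10 (SE; adjusted p = 4.12e-08). The groups of Dmd were tight and far apart although the difference was small beside that of Sgca. Sgce, the broadly made ε-sarcoglycan, was the member called higher in fat, at −2.61 ± 0.10.

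All 11 tested regulators of the muscle lineage were called higher in muscle, with a median of 4.03 (3.84 with dim genes at their bounds), and 6 of them were detected in muscle only. Myf6 (MRF4, the bHLH factor most abundant in adult fibres) was at least 1216-fold higher, Mstn (myostatin, a secreted brake on muscle growth) at least 222-fold, Myog (myogenin) at least 199-fold, and Myod1 at least 17.4-fold. Myog varied in muscle, at 0.95, 2.39, 2.48 and 2.06, with replicate 1 the lowest, and was not above background in fat. Pax7, the marker of satellite cells, was near the floor in muscle, at −3.64, −3.93, −3.98 and −4.24, and its bound was 3.29-fold; that of Pax3 was 3.69-fold. The MEF2 family differed less, with Mef2c at 3.84, Mef2d at 1.72 and Mef2a at 1.16. With normexp and quantile normalization Pax7, Pax3, Mef2a and Mef2d were no longer called. Myf5 was not well above background on any of the 8 arrays and was not tested.

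Genes of slow and of fast fibres were called higher in muscle alike, with 9 of 10 slow genes (median 9.38; Tpm3 was the exception) and all 14 fast genes (median 11.68, or 11.44 with the dim gene at its bound). Myl2, the slow regulatory light chain, was at least 5186-fold higher in muscle, with muscle values of 6.52, 6.83, 6.95 and 6.67. Tnni1, the slow inhibitory troponin, was at least 1436-fold higher, with 4.39, 5.09, 5.08 and 4.73. Muscle replicate 1 was the lowest array for both of these slow genes. Tnnc1 (slow troponin C) had 9.66 and Tnnt1 (slow troponin T) 9.11, while in the fast list Mylpf (the fast regulatory light chain) had 11.82 and Tnnc2 (fast troponin C) 9.38. The slow genes Myl2, Tnnc1 and Myh7 also encode the forms used in heart.

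The phosphocreatine shuttle, which buffers ATP in the working fibre, held the largest differences among metabolic genes. Ckm, muscle creatine kinase, was at 9.43, 9.37, 9.27 and 9.49 in muscle and −3.09, −4.93, −4.63 and −6.00 in fat, a difference of 14.05 ± 0.53 (SE; adjusted p = 8.27e-08). Its mitochondrial partner Ckmt2 had 14.40 ± 0.80, with fat arrays between −7.77 and −3.77. Ampd1, muscle AMP deaminase (probe at chr3:103227787-103227846 on mm8), was at 6.71, 6.88, 6.70 and 6.63 in muscle and not well above background on any fat array, at least 5386-fold higher. Ak1, adenylate kinase, had 6.93. The brain form Ckb (−2.32) and the liver form Ampd2 (−1.72) were called higher in fat, so the list had 5 members called in muscle and 2 in fat of 8.

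Glycogen use and glycolysis were called higher in muscle in 25 of 32 genes and higher in fat in 5, with a median of 3.45. Pygm, muscle glycogen phosphorylase, was at 6.79, 6.88, 6.66 and 7.05 in muscle and −3.16, −3.87, −3.38 and −3.31 in fat, a difference of 10.28 ± 0.16 (SE; adjusted p = 1.67e-09). Gapdh, often used as a reference gene, had 3.89 ± 0.07 and was at 9.19, 9.26, 9.13 and 9.24 against 5.21, 5.38, 5.28 and 5.39. Its groups did not overlap, and the arrays of each tissue lay within 0.2 of each other. Slc2a4, the insulin-responsive glucose transporter used by both tissues, had 3.75, and Hk2, the hexokinase of insulin-sensitive tissue, had 2.88 ± 0.31 with fat replicate 1 (2.25) below the other fat arrays (3.48 to 3.61). The 5 members called higher in fat were Pygl (−4.73), Pgam1 (−2.14), Pfkl (−2.05), Hk1 (−1.76) and Eno1 (−1.65), and all are the liver or general form of an enzyme whose muscle form was called the other way.

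That pattern was followed over 26 pairs of related forms, in which a muscle form was set beside a form known from other tissues. In 18 pairs the muscle form was called higher in muscle and the other form higher in fat. Besides the glycolytic enzymes these were Ckm and Ckb, Ampd1 and Ampd2, Gys1 and Gys2 (glycogen synthase; 3.64 and −3.53), Phka1 and Phka2 (phosphorylase kinase; 7.13 and −1.74), Cpt1b and Cpt1a (carnitine palmitoyltransferase, the gate of fatty acid oxidation; 8.16 and −2.02), Fabp3 and Fabp4 (fatty acid binding; 9.60 and −1.92), Slc25a4 and Slc25a5 (the ADP/ATP carrier; 3.37 and −1.40), Plin5 and Plin1 (droplet coats; 2.66 and −5.45), Acacb and Acaca (acetyl-CoA carboxylase, of which the second feeds fatty acid synthesis; 1.75 and −3.10), Actn2 and Actn1 (12.88 and −1.20), Acta1 and Actb (4.71 and −1.67), and 2 pairs of cytochrome c oxidase. The values of Cpt1b were 5.61, 5.43, 5.50 and 5.49 in muscle and −2.78, −2.63, −2.91 and −2.31 in fat. Those of Cpt1a were 0.24, 0.13, 0.11 and −0.13 against 2.15, 2.07, 1.86 and 2.37. Neither gene's groups overlapped, and the order of the tissues turned between them.

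In the other 8 pairs the forms did not oppose. Ldha (2.42) and Ldhb (2.80), the subunits of lactate dehydrogenase, were both called higher in muscle, as were Tnnt3 (12.41) and the cardiac Tnnt2 (4.50). Cox7a2 (0.73), Slc2a1 (0.73), Atp2a3 (−0.22) and Fbp1 (−0.42) were not called while their muscle forms were. Fbp1 had 1 muscle array, replicate 3, at −2.02 while the others were between −5.04 and −4.82. Without that array Fbp1 was called higher in fat at −1.14. In the pair Akt2 and Akt1 neither was called. Calls for Actb and Hk1 were lost when all probes of the gene were averaged (−0.49 and −0.84), and other probes gave 0.70 for Actb and 1.11 for Hk1, so the direction of these 2 depended on the probe. Actn1 (−0.78) was not called with normexp and quantile normalization.

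**Figure D3:**
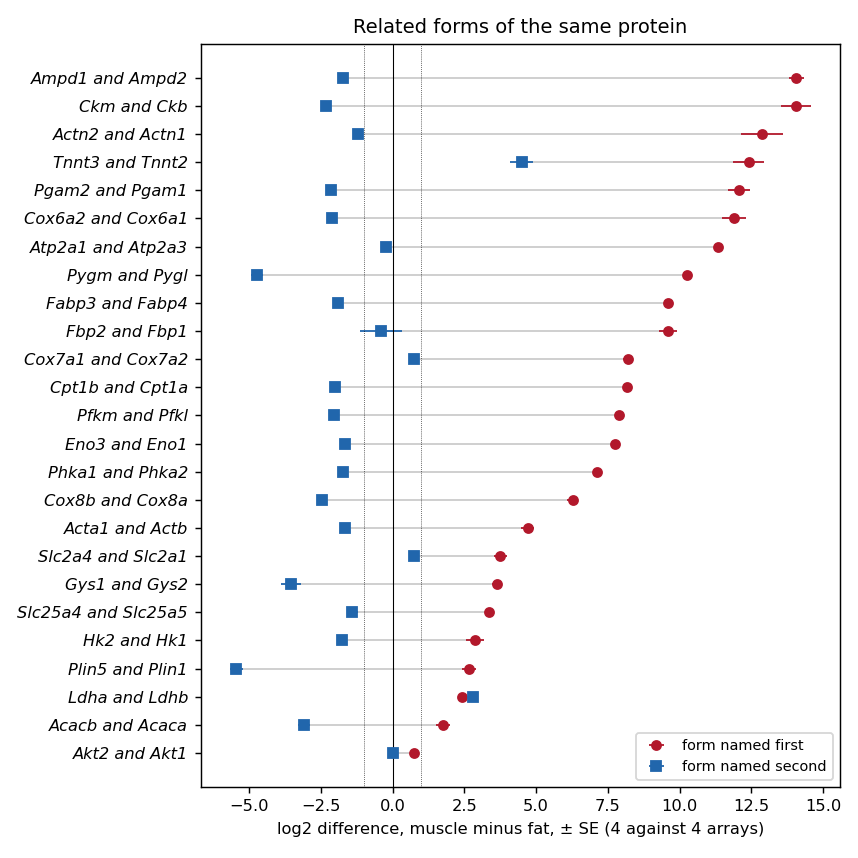
Log2 difference, muscle minus fat, with its SE (4 against 4 arrays) for 25 pairs of related protein forms, with the muscle form as a red circle, the other form as a blue square and dotted lines at a 2-fold difference. In 18 pairs the circle lies right and the square left of the dotted lines, from Ckm and Ckb (14.05 and −2.32) to Acacb and Acaca (1.75 and −3.10).

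The mitochondrial lists were called higher in muscle with smaller differences than the contractile ones. All 21 genes of the citric acid cycle were called higher in muscle, from 1.05 in Suclg2 to 5.34 in Got1 (aspartate aminotransferase of the malate shuttle), with a median of 2.29, and 19 of them also with normexp and quantile normalization. Cs, citrate synthase, was at 8.35, 8.30, 8.38 and 8.36 in muscle and 6.02, 6.25, 6.10 and 5.98 in fat, a difference of 2.26 ± 0.08 (SE; adjusted p = 5.78e-08). Both groups were tight. Of 78 electron transport chain genes 70 were called higher in muscle and 3 in fat, with a median of 1.93. The genes that stood apart from this block were subunits with tissue forms. Cox6a2, the muscle form, was at 9.21, 9.18, 9.14 and 9.07 against −1.35, −3.03, −3.01 and −3.60, a difference of 11.90, while its general form Cox6a1 had −2.10. Cox8b had 6.27 and Cox8a −2.46, and Cox7a1 8.19. With normexp and quantile normalization 45 electron transport genes were called higher in muscle in place of 70.

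Fatty acid oxidation was called higher in muscle in 14 of 22 genes and higher in fat in 1, Cpt1a, with a median of 1.57. Fabp3, which carries fatty acids in muscle and heart, had 9.60 ± 0.13 with muscle arrays at 8.82, 8.94, 9.16 and 8.82 and fat arrays at −0.46, −0.94, −0.70 and −0.57. Ucp3, the uncoupling protein of muscle, had 3.80 and Acadm, medium-chain acyl-CoA dehydrogenase, 1.39. The call of Acadm was lost with normexp and quantile normalization, at 0.58.

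Ribosomal protein genes split by compartment. Of 78 mitochondrial ribosomal proteins 46 were called higher in muscle and 1 higher in fat, with a median of 1.06, while of 82 cytosolic ribosomal proteins 3 were called higher in muscle and 2 in fat, with a median of 0.04. The cytosolic median was −0.84 with normexp and quantile normalization, where 21 were called higher in fat, and 0.26 with median scaling, so its sign depended on the scaling. With normexp and quantile normalization 26 of the mitochondrial ones were called higher in muscle. Rpl3l, a muscle copy of Rpl3, was at 6.83, 6.79, 6.58 and 6.65 in muscle and −3.16, −3.78, −3.93 and −3.68 in fat, a difference of 10.35 ± 0.17 (SE; adjusted p = 1.73e-09). It was far from the rest of the list, in which 77 genes were not called.

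**Figure D4:**
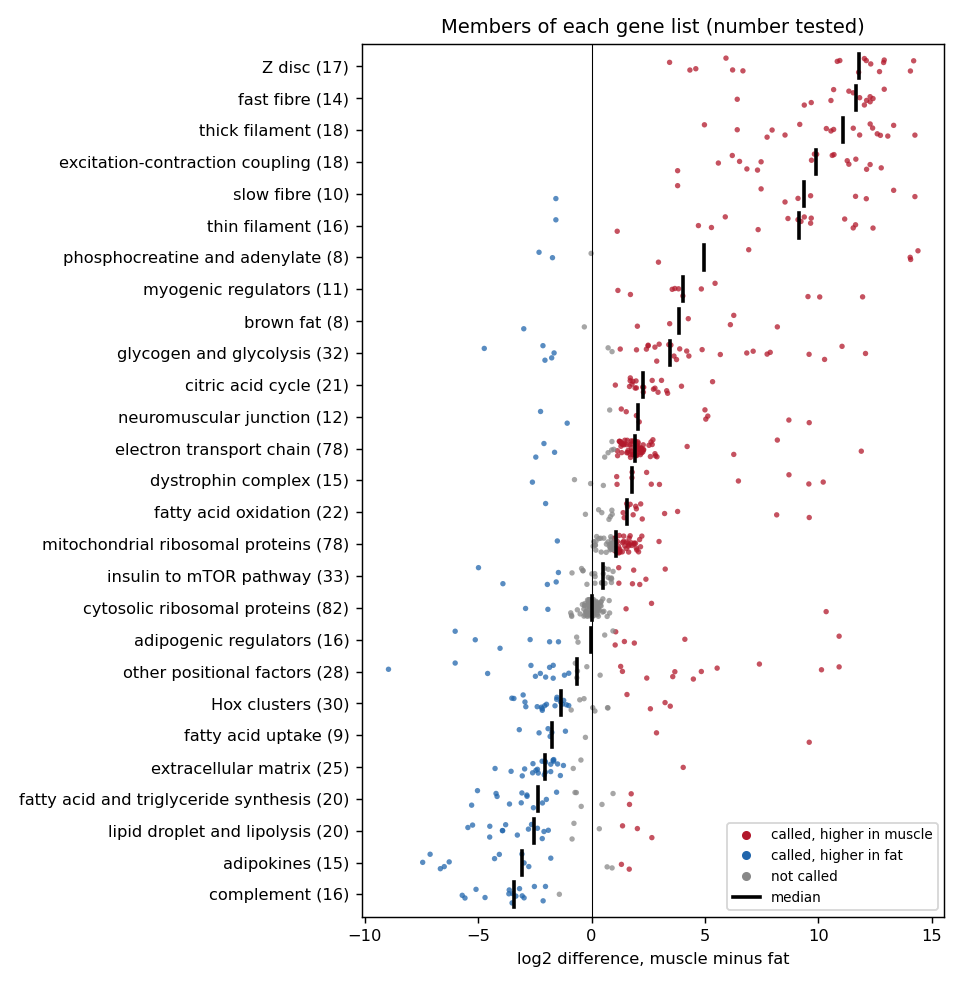
Log2 difference, muscle minus fat, for each tested member of 27 gene lists (number tested in brackets), coloured by call, with the list median as a bar. List medians run from 11.78 for Z disc genes to −3.41 for complement genes, and 77 of 82 cytosolic ribosomal proteins were not called, with Rpl3l at 10.35 the highest and Rps6, which is dim in muscle, at −2.91 the lowest.

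Hormones secreted by adipocytes were called higher in fat in 11 of 15 genes and higher in muscle in 2, with a median of −3.07. Adiponectin, Adipoq (probe at chr16:23072837-23072896 on mm8), was at 1.87, 2.68, 2.26 and 1.87 in muscle and 8.35, 8.64, 8.50 and 8.30 in fat, a difference of −6.28 ± 0.19 (SE; adjusted p = 2.95e-08). Leptin, Lep, was more variable in both tissues, at −3.35, −2.35, −4.31 and −2.26 against 2.88, 4.29, 2.27 and 4.27, a difference of −6.49 ± 0.61. Replicates 2 and 4 were the higher pair of arrays for Lep in each tissue. Retn had −7.45 and Rbp4, the retinol carrier, −6.67. Nnat (neuronatin, an imprinted gene) had −7.12 ± 0.75, with 1 muscle array not above background. Nampt (1.32) and Lcn2 (1.66) were the members called higher in muscle, and neither was with normexp and quantile normalization. Lcn2 also lost its call without any of 4 arrays in turn, muscle replicates 1 and 4 and fat replicates 2 and 3, with values between 1.16 and 1.58.

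Lipid droplet and lipolysis genes were called higher in fat in 14 of 20 cases and higher in muscle in 3, with a median of −2.52. Plin1, whose promoter is shown above, was at 1.13, 1.37, 0.90 and 0.73 in muscle and 6.05, 6.94, 6.74 and 6.21 in fat, a difference of −5.45 ± 0.23 (SE; adjusted p = 1.46e-07). Cidec, which makes large droplets, had −5.25 ± 0.15 with fat arrays at 9.05, 9.12, 9.16 and 8.97. Pde3b, which ends the lipolytic signal of cAMP, had −4.49, and Adrb3, which starts it, was at least 7.95-fold higher in fat. The members called higher in muscle included Plin5 (2.66; the droplet coat of oxidative tissue) and Cidea (2.02).

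Synthesis of fatty acids and triglycerides was called higher in fat in 13 of 20 genes and higher in muscle in 2, with a median of −2.36. Scd1, stearoyl-CoA desaturase, was at 1.85, 2.50, 1.48 and 2.68 in muscle and 6.88, 7.67, 7.19 and 7.92 in fat, a difference of −5.29 ± 0.32 (SE; adjusted p = 1.13e-06). Fasn, fatty acid synthase, was at 2.60, 2.74, 2.29 and 2.66 against 5.90, 7.64, 5.96 and 7.45, a difference of −4.17 ± 0.42. In both tissues replicates 2 and 4 were higher than 1 and 3 for both genes. Mogat1 (monoacylglycerol acyltransferase) had −5.03 and Slc25a1 (the citrate carrier that exports carbon for synthesis) −4.21, while Lpin1 (a phosphatidate phosphatase) had 1.67 and lost its call with normexp and quantile normalization, at 0.87. Pck1 was not analysed here.

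Fatty acid uptake was called higher in fat in 6 of 9 genes and higher in muscle in 2, with a median of −1.75 (−1.25 with the dim gene at its bound). Lpl, lipoprotein lipase, was at 6.95, 6.54, 7.02 and 6.70 in muscle and 7.74, 8.24, 8.07 and 7.76 in fat, a difference of −1.15 ± 0.16 (SE; adjusted p = 0.000156) that fell short of 2-fold with median scaling (−0.93). Cd36, the fatty acid translocase, had −1.83, Slc27a1 −2.31 and Vldlr 2.86. Both tissues use these genes, and Lpl was well above background on all 8 arrays.

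Regulators of fat cell formation were called in both directions, 6 of 16 higher in fat and 6 higher in muscle (37.5% each, against 29.1% and 23.3% of all genes), with a median of −0.01. Pparg, the master factor of adipocytes, was at 0.53, 1.20, 1.50 and 1.74 in muscle and 4.61, 5.55, 5.58 and 5.37 in fat, a difference of −4.03 ± 0.31 (SE; adjusted p = 4.27e-06). Cebpa, its partner, had −5.13 and Tcf21, a bHLH factor of visceral preadipocytes, was at least 18.8-fold higher in fat. On the other side Tbx15, a T-box factor known from limb and subcutaneous tissue, was at least 509-fold higher in muscle, Rxrg had 4.12, Klf5 1.89 and Cebpb 1.45. With normexp and quantile normalization 7 were called higher in fat and 3 higher in muscle, and Cebpb was not called.

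Brown fat genes were mostly higher in muscle, with 6 of 8 called there, 1 in fat and a median of 3.86 (3.77 with bounds). Cox7a1, Cox8b, Ppargc1a, Cidea and Dio2 are shared by brown fat and muscle, and their differences were 8.19, 6.27, 4.27, 2.02 and 3.45. Ppargc1a, the coactivator of mitochondrial genes, was uneven in muscle, at 1.18, 1.24, 3.45 and 3.87. Ucp1, the uncoupling protein that defines brown fat, was at −3.77, −5.40, −2.23 and −6.31 in fat, near the floor, and not well above background on any muscle array, with a bound of 1.91-fold. The call of Ucp1 was lost with normexp and quantile normalization, at −0.61. Zic1 was at least 17.0-fold higher in muscle.

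Genes of the extracellular matrix were called higher in fat in 22 of 25 cases, with a median of −2.04. Mmp3, a matrix protease, was at −2.41, −2.41, −2.76 and −3.16 in muscle and 1.69, 1.11, 2.16 and 1.31 in fat, a difference of −4.25 ± 0.26 (SE; adjusted p = 1.17e-06), and Col15a1, a collagen of basement membranes, had −3.55. Spp1 (osteopontin) was the member called higher in muscle, at 0.92, −0.47, 0.04 and −0.59 against −4.11, −4.55, −3.92 and −3.70, a difference of 4.04 ± 0.34. Fibroblast and preadipocyte markers moved the same way, with 8 of 10 called higher in fat, none higher in muscle and a median of −1.32. Their summed signal was 197 to 229 on muscle arrays and 406 to 475 on fat arrays.

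Complement genes had a median of −3.41, and 15 of 16 of them were called higher in fat. C2, a component of the classical pathway, was at 1.06, 1.18, 0.82 and 0.81 in muscle and 6.78, 6.55, 6.48 and 6.86 in fat, a difference of −5.70 ± 0.13 (SE; adjusted p = 6.33e-09). C4b had −5.58, C6 −5.09 and the central component C3 −3.50. Cfd, which adipocytes secrete as adipsin, had −2.97 and was at 5.73 to 6.39 in muscle.

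Immune cell markers were mostly higher in fat. Of 12 macrophage markers 11 were called higher in fat and 1 higher in muscle, with a median of −3.51. The latter, Itgax, was not well above background on any fat array, had a bound of 1.41-fold and was not called with normexp and quantile normalization. The summed signal of the macrophage markers was 38.1 to 56.5 on muscle and 312 to 363 on fat arrays. Cd68, a lysosomal protein of macrophages, was at −2.22, −1.79, −1.57 and −2.16 in muscle and 2.22, 1.97, 2.52 and 1.83 in fat, a difference of −4.07 ± 0.20 (SE; adjusted p = 3.25e-07), and Clec10a, a lectin of tissue macrophages, had −4.31. Of 12 lymphocyte markers 8 were called higher in fat and 1 higher in muscle, with a median of −2.36, but the sums overlapped, at 3.84 to 17.3 in muscle and 4.70 to 10.4 in fat. Lck, a kinase of T cells, was at −2.26, −1.97, −2.41 and −1.22 in fat and well above background on 1 muscle array, replicate 1. Cd4 was at −2.87, −3.01, −3.10 and −2.93 in muscle against −4.75, −4.94, −4.91 and −4.81, a difference of 1.87 that was not called with normexp and quantile normalization (0.82). The median of the lymphocyte list turned to 0.55 among the members well above background on all 8 arrays, and 3 members were called higher in fat with normexp and quantile normalization. Endothelial markers had 5 of 11 called higher in fat (45.5%, against 29.1% of all genes) and a median of −0.96, with sums of 54.5 to 69.7 in muscle and 94.1 to 141 in fat.

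Mesothelium, the sheet that lines the body cavity, was represented by 9 markers. All 9 markers were called higher in fat, with a median of −7.03 (−5.88 with the dim genes at their bounds), and 4 of them were not well above background on any muscle array. Upk3b (probe at chr5:136329279-136329338 on mm8) was at 3.06, 2.62, 2.69 and 3.21 in fat and at least 306-fold higher there. Msln was at 4.38, 4.31, 3.99 and 4.19 in fat against −2.57, −2.64, −2.76 and −3.29 in muscle, a difference of −7.03 ± 0.17 (SE; adjusted p = 9.94e-09). Wt1, the transcription factor of mesothelium, was at least 118-fold higher and Lrrn4 at least 38.8-fold higher. Upk1b was at 1.50, 0.98, 1.18 and 1.63 in fat and well above background on 1 muscle array, replicate 3, at −3.82. The summed signal of the list was 40.5 to 52.5 on fat arrays and 0.727 to 0.998 on muscle arrays.

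The insulin to mTOR pathway, in which the gene deleted elsewhere in the series lies, was described member by member. Of 33 genes 7 were called higher in muscle and 5 higher in fat, with a median of 0.52, and 21 were not called; over all genes tested 23.3% were called higher in muscle and 29.1% higher in fat, against 21.2% and 15.2% of this list. Akt1 itself (probe at chr12:113101676-113101735 on mm8) was at 3.70, 3.63, 4.12 and 3.77 in muscle and 3.82, 3.83, 3.85 and 3.64 in fat, a difference of 0.01 ± 0.12 (SE; adjusted p = 0.911), and the groups overlapped. Akt2, the form that carries the insulin signal to glucose uptake, was at 4.64, 4.38, 4.45 and 4.59 against 3.79, 3.95, 3.87 and 3.51, a difference of 0.73 ± 0.11 that passed the adjusted p (0.000359) but not the 2-fold threshold. Igf1, the growth factor, had −4.99 ± 0.14, with fat arrays at 4.20, 4.08, 4.04 and 4.45 and muscle arrays between −1.10 and −0.54. Irs3, an insulin receptor substrate known from fat, had −3.91, Tbc1d1, a brake on glucose transporter traffic that is abundant in muscle, 3.25, and Foxo4 2.40. Foxo4 was not called with normexp and quantile normalization (0.77). Irs2 was not analysed here.

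Genes that mark position in the body differed between quadriceps muscle and visceral fat in both directions. Position and tissue cannot be told apart in this comparison. Of 30 tested Hox genes 19 were called higher in fat and 4 higher in muscle, with a median of −1.33 (−1.08 with bounds), and all 30 were well above background on every fat array. Hoxd4 was at −2.90, −3.90, −3.42 and −3.36 in muscle and −0.03, 0.66, −0.19 and 0.05 in fat, a difference of −3.51 ± 0.25 (SE; adjusted p = 2.7e-06), and Hoxa11 had −3.42. Hoxc8 was at least 4.11-fold higher in fat. Those called higher in muscle were Hoxc4 (3.47), Hoxb6 (3.24), Hoxc10 (2.60, a gene of the hindlimb) and Hoxa4 (1.56). Hoxc10 was at 1.22, 1.17, 1.06 and 1.28 against −1.21, −1.63, −1.35 and −1.46, with no overlap. Under normexp and quantile normalization 9 Hox genes were called higher in fat and 3 higher in muscle.

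Other factors of position were split, 11 of 28 called higher in muscle and 12 higher in fat (39.3 and 42.9%, against 23.3 and 29.1% of all genes), with a median of −0.64. Tbx15 is named above. Tbx1, known from the muscles of the head, was at 4.50, 4.55, 4.39 and 4.61 in muscle but uneven in fat, at −5.15, −7.80, −7.84 and −1.71, with a difference of 10.14 ± 1.26. Meis2, a cofactor of Hox proteins, had −4.58 and Wt1 and Tcf21 were the members detected in fat only.

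Detection was then taken on its own. Of 27586 genes on the array, 15178 (55.0%) had a probe well above background on all arrays of both tissues and 6732 (24.4%) on none. By the rule of 4 of 4 arrays in 1 tissue and 0 of 4 in the other over all probes, 364 genes (1.32%) were detected in muscle only and 798 (2.89%) in fat only. The remaining 4514 were seen on some arrays. When 1 array was left out, which makes the rule easier to meet, the counts ran from 373 to 484 and from 809 to 1090. With the criterion of a significant positive signal in place of the one for background they were 175 and 355. Of the 364 genes, 181 (49.7%) were well above background on at least 1 fat array of another group, and of the 798, 396 (49.6%) on at least 1 such muscle array. Fat arrays were brighter, and their lowest levels well above background were −5.98 to −5.48, against −5.63 to −5.16 in muscle. The part of this in the counts and bounds was not tested.

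Genes detected in muscle only were fewer and had larger bounds. Their median bound was 4.60-fold and 117 of 364 passed 10-fold, while the genes detected in fat only had a median bound of 2.49-fold and 75 of 798 passed 10-fold. The 10 largest bounds in muscle were those of Ampd1, Myl2, Klhl31 (a kelch protein of muscle, at least 2894-fold), Casq1, Fitm1 (a lipid droplet protein of muscle and heart, at least 2326-fold), 2310002L09Rik, Myh6 (at least 1887-fold), Perm1 (a regulator of muscle mitochondria, at least 1646-fold), 1500010C09Rik and Vgll2 (a cofactor of myogenic factors, at least 1381-fold). Klhl31 was at 5.98, 6.01, 5.49 and 5.85 on the muscle arrays. In fat they were those of Upk3b, Muc16 (a mesothelial mucin, at least 215-fold), Orm1 (an acute phase protein, at least 143-fold), 2210016H18Rik, Wt1, Lctl (at least 113-fold), Mogat2 (at least 92.6-fold), Fam110c, Krt23 (at least 54.1-fold) and A530020G20Rik. Orm1 was at 1.05, 2.22, 1.39 and 2.53 in fat and Mogat2 at 0.50, 1.24, 0.33 and 2.61, so these varied more between arrays than the mesothelial genes. Of the genes detected in muscle only, 57 (15.7%) were well above background on all 4 wild-type liver arrays of the same age, against 303 (38.0%) of those detected in fat only. The same detection pattern in all 4 group pairs was found for 118 and 266 genes.

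The difference was measured again in the other group pairs, on arrays the comparison had not used. Of the genes called higher in muscle, 98.4% had the same sign at 8 weeks in wild type, 99.8% in Akt1+/- mice at 35 weeks and 98.5% in Akt1+/- mice at 8 weeks, and of those called higher in fat 98.5, 99.0 and 98.6%. The share called again in the same direction was 80.6, 89.2 and 79.8% for muscle and 82.0, 87.9 and 80.6% for fat. Of all genes tested in these 3 pairs, 21.4, 23.8 and 21.4% were called higher in muscle and 26.8, 27.4 and 26.0% higher in fat. In all 3 pairs 6891 of the 9684 genes (71.2%) were called the same way. Across 18456 genes the differences correlated with those of the 3 pairs at 0.957, 0.980 and 0.959. The probe that stood for a gene could differ between the comparison and those pairs, as for Myh2. Some list medians were close, with 11.07 to 12.04 for the Z disc, 2.10 to 2.75 for the citric acid cycle and −3.58 to −3.28 for complement in the 3 pairs. Others moved, such as the thin filament list, at 9.17 here and 7.79 at 8 weeks in wild type, and the brown fat list, at 3.86 and 2.53. The oocyte list, near the floor, was at −1.76 here (−0.55 with the dim genes at their bounds) and 0.83 in Akt1+/- mice at 35 weeks, and the hepatocyte list at −0.67 here and 1.30 in Akt1+/- mice at 8 weeks.

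Few genes had a tissue difference that itself differed by genotype at 35 weeks. Of 19089 genes in the fit of 28 arrays, 253 (1.33%) passed an adjusted p of 0.05 for the interaction, 22 (0.115%) with a larger muscle minus fat value in wild type and 231 (1.21%) with a smaller one. Between the ages within wild type 1425 (7.47%) passed, 654 (3.43%) larger and 771 (4.04%) smaller at 35 weeks. The count by genotype fell to 161 without muscle replicate 2 of the wild-type 35-week group, and to 136 with median scaling. The count by age was 923 and 767 without wild-type 8-week muscle replicates 1 and 2 and 772 without wild-type 8-week fat replicate 2, and 2161 with normexp and quantile normalization. The ages were on different slides and scanned on different days, so age cannot be told apart from those. At 35 weeks each genotype's arrays of a tissue lay on a slide of their own, and the fat arrays of the genotypes were scanned on different days, so genotype cannot be told apart from slide or, in fat, from scan day.

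Fibre type genes differed by age within wild type. In the slow list 7 of 10 genes had a larger tissue difference at 35 than at 8 weeks and none a smaller one, and in the fast list 1 of 14 had a larger and 5 a smaller one. Over all genes in the fit 3.43% had a larger and 4.04% a smaller difference at 35 weeks. The slow genes were higher in 35-week muscle than in 8-week muscle in 10 of 10 cases, with a median shift of 1.83 (0.22 to 2.22), and a median shift of −0.32 in fat (−1.74 to 0.77). Fast genes shifted by 0.21 in muscle and by 1.42 in fat (−0.52 to 5.05), where 11 of 14 were higher at 35 weeks. These fat shifts include values at background, as for Myl2 and Tnni1 at 35 weeks and Pvalb and Myh4 at 8 weeks, so their sizes are not exact. No share over all genes is given beside the counts of direction, 10 of 10 and 11 of 14. Myh7 was 9.23 ± 0.18 in 35-week muscle (SD, n = 4) and 7.21 ± 1.71 in 8-week muscle (SD, n = 3), where it ran from 5.29 to 8.57. Myh4 was 10.34 ± 0.06 and 9.91 ± 0.09 in muscle, and −0.33 ± 1.26 in 35-week fat, and it was well above background on 1 of 3 8-week fat arrays. Pvalb was −4.11 ± 1.33 in 35-week fat, and its 8-week fat values lay below the lowest level well above background. When 1 array was left out, the slow genes past the threshold ran from 2 (without wild-type 8-week fat replicate 3) to 7, and the fast genes with a smaller difference from 2 to 7, with 5 of them without wild-type 35-week fat replicate 1. The ages lay closer together in Akt1+/- mice. In Akt1+/- mice the slow list's median tissue difference was 9.31 at 35 weeks and 9.10 at 8 weeks, and the fast list's was 12.46 at both ages. Single genes could still be apart. The tissue difference of Myh4 was 13.48 at 35 weeks and 16.60 at 8 weeks in Akt1+/- mice, against 10.68 and 15.29 in wild type. It was not well above background on any 8-week Akt1+/- fat array, so its size there is not exact. Myh7 was 9.07 ± 0.14 in 35-week and 8.70 ± 0.31 in 8-week Akt1+/- muscle (SD). An age difference within Akt1+/- mice was not tested.

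**Figure D5:**
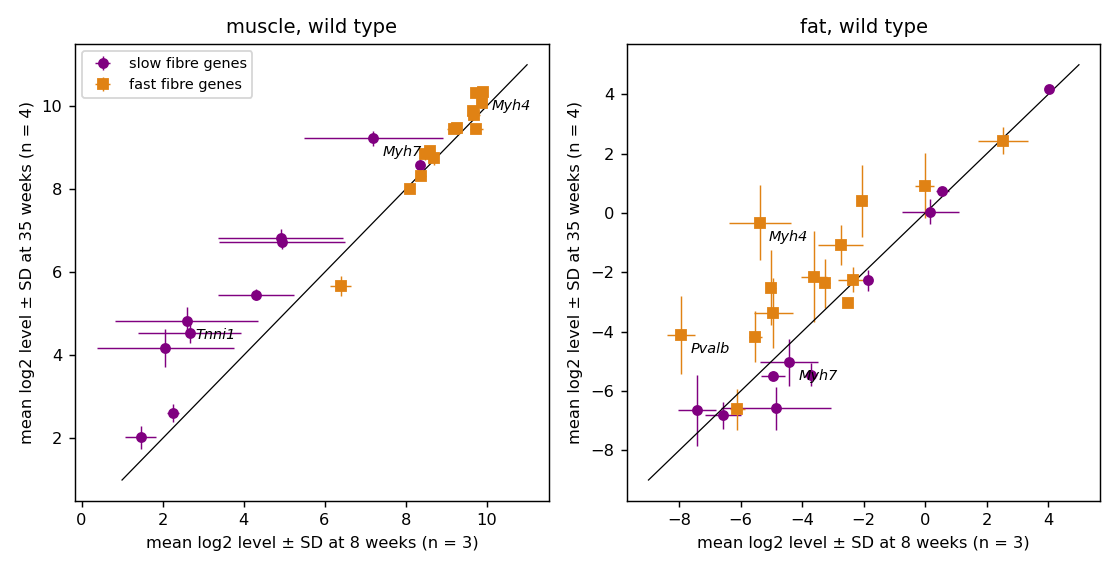
Mean log2 level ± SD of slow (purple circles) and fast (orange squares) fibre genes in wild-type muscle (left) and fat (right), at 8 weeks (x axis, n = 3 arrays) and 35 weeks (y axis, n = 4 arrays), with the line of equal level. In muscle the slow genes lie above the line, with wide 8-week error bars, and in fat 11 of 14 fast genes lie above it.

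Btg4 and Papolb, members of the oocyte list, were among the 5 genes with the largest negative difference by genotype, beside 2 olfactory receptors. Btg4 was at −4.65, −4.08, −4.31 and −4.48 in wild-type fat at 35 weeks and not well above background on any of the 4 fat arrays of Akt1+/- mice of that age, nor on any muscle array of either genotype. Papolb, a poly(A) polymerase of germ cells, was at −5.37, −4.22, −4.51 and −5.14 in wild-type fat and likewise not well above background in the other 3 groups, so the sizes of both differences rest on values at background. Of 14 oocyte markers 5 were tested. Btg4, Papolb and Oosp1 were not well above background on any muscle array and Padi6 on any fat array, with bounds of 1.98-fold, 1.47-fold, 1.02-fold and 2.46-fold, and no oocyte marker was called with normexp and quantile normalization. The zona pellucida genes Zp1 and Zp2 were not well above background on any of the 8 arrays. The summed signal of the oocyte list was 0.217 to 0.414 on muscle and 0.359 to 0.526 on fat arrays.

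Markers of other tissues were summed in the same way. The smooth muscle markers, most of whose muscle signal was that of the Acta2 probe, summed to 538 to 601 on muscle and 87.3 to 125 on fat arrays. The red cell markers summed to 17.0 to 26.8 on muscle and 68.3 to 105 on fat arrays, and the Schwann cell markers to 12.3 to 14.5 and 29.4 to 39.8. The hepatocyte markers summed to 0.409 to 5.54 on muscle and 1.23 to 4.07 on fat arrays. Albumin, Alb, was at −3.10, −2.41, 1.76 and −3.38 in muscle and −0.37, 0.79, −0.03 and 1.31 in fat, so that muscle replicate 3, which was also the highest array for Fbp1 and Upk1b, stood apart, and without it Alb was called at −3.38. The part of other tissue in that sample was not tested. Of 4 tested pancreas genes 1 was called in each direction, with a median of 0.37. That is 25% each, near the 23.3% higher in muscle and 29.1% higher in fat of all genes. Cela1 was at least 17.8-fold higher in fat, at −1.32, −0.63, −1.26 and −1.27, and Cel was higher in muscle, with a difference of 1.04 that was not called with normexp and quantile normalization (0.74), while Cpa1, Cela2a, Pnlip and Prss2 were not well above background on any array. Of 5 tested ovarian markers 2 were called higher in muscle and 1 higher in fat, and of 3 tested oviduct markers 2 higher in muscle, where 52.4% of all genes were called in either direction, and the sums of these lists were below 1.7 relative to the 75th percentile. With normexp and quantile normalization no ovarian marker was called higher in muscle and 1 higher in fat, and 1 oviduct marker was called higher in muscle. Smooth muscle markers were called higher in muscle for 1 of 6 (Acta2) and higher in fat for 2. These are 16.7 and 33.3%, near the 23.3 and 29.1% of all genes. The direction of Acta2 turned with the mean of its probes.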

How the data were processed

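RNA of quadriceps muscle and visceral fat was hybridised by the authors to one-colour 44K whole mouse genome arrays (Agilent), and signals were extracted with Feature Extraction (version 9.1 per the submitters' notes). The deposited scanner files give each spot's processed intensity and the mean and background intensities, with other columns (flags for detection, saturation and outliers, and probe and gene names) also as deposited. The authors' deposited log2 table equals the log2 processed intensity minus a constant per array. Here log2 processed intensity minus each array's 75th percentile was used, with control spots and outlier flags left out. Probes well above background on at least 3 of 4 arrays of a tissue were kept, and the probe with the highest mean stood for a gene. Of 41174 probes 24375 were named by RefSeq accession, 6301 by symbol and 2426 by an older symbol (GRCm38.p6), and 8072 kept the array's name. Probe positions are on mm8 as the files give them.

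Muscle was compared with fat by limma 3.58.1 in R 4.3.3 (lmFit and eBayes, no covariates, Benjamini-Hochberg), and interactions were fitted over 28 muscle and fat arrays. In simulated data only 200 of 18474 genes were shifted. Of these, 66% were recovered after a shift of 1 log2 unit and 94.5% after a shift of 2, with 7 false calls each. Recovery there meant an adjusted p below 0.05 alone, without the 2-fold threshold. In the data 83.0% of genes passed that p, so these shares do not give the recovery of the comparison of muscle with fat. For a gene not well above background in a tissue, the fold is a bound: the mean of the higher tissue against, per array of the other, the higher of the probe's own level and the lowest level well above background. Named genes were the 10 largest called differences in each direction among genes well above background on all 8 arrays, the 10 largest bounds in each tissue, the 3 largest and 3 smallest called members of each list, the paired forms, the called markers, and 5 genes per direction of each interaction; other list members named were chosen after their values were seen. Members and lists were chosen with earlier results of these data known. Some list members and 1 pair of forms are counted but not reported by name here.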

Additional observations from a re-analysis of the deposited data

Results flagged for a closer look

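Single arrays that lay far from the other 3 of their tissue were looked for in 200 genes, which makes 400 groups of 4, and 28 (7%) had a gap to the nearest array that, as a share of the group's range, passed Dixon's critical value, where chance gives about 1 in 20. On muscle replicate 1 these were Myh4 (10.26, others 10.36 to 10.38), Slc25a4 (9.31, others 9.59 to 9.62) and Lck (−4.90, others −7.62 to −7.42). On muscle replicate 2 these were Pgam2 (8.57, others 8.18 to 8.24), Chrna1 (2.62, others 2.37 to 2.40), Rapsn (1.37, others 1.08 to 1.13), Musk (−3.60, others −2.50 to −2.33) and Myf6 (4.67, others 4.54 to 4.56). On muscle replicate 3 these were Myoz1 (8.53, others 8.80 to 8.85), Casq1 (5.31, others 5.76 to 5.83), Ckmt2 (8.66, others 8.33 to 8.37), Fbp1 (−2.02, others −5.04 to −4.82), Hoxa11 (−3.62, others −3.15 to −3.07) and Upk1b (−3.82, others −7.60 to −7.50). On muscle replicate 4 this was Myod1 (−2.30, others −1.33 to −1.24). On fat replicate 1 these were Ampd1 (−6.47, others −7.76 to −7.56), Myh6 (−6.04, others −7.80 to −7.59), Myf6 (−6.22, others −7.87 to −7.68), Hk2 (2.25, others 3.48 to 3.61), Padi6 (−7.19, others −7.57 to −7.51) and Casq2 (−4.87, others −5.69 to −5.55). On fat replicate 2 these were Slc25a4 (6.25, others 6.11 to 6.13), Hoxa11 (−0.092, others 0.25 to 0.31) and Cela1 (−0.63, others −1.32 to −1.26). On fat replicate 3 these were Ryr1 (−2.18, others −1.64 to −1.54) and Fbp2 (−7.71, others −6.37 to −6.26). On fat replicate 4 these were Slc2a1 (0.57, others 0.98 to 1.06) and Akt1 (3.64, others 3.82 to 3.85).

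The muscle minus fat difference differed by genotype in 253 genes by limma's interaction term, and values are log2 differences, wild type minus Akt1+/-, at 35 weeks. It was larger in wild type for Rbp2 (2.17), Epha6 (2.12), Tgm6 (2.06), Olfr1221 (1.53), Olfr649 (1.50) and Myf6 (1.38). It was smaller for Btg4 (−3.92), TC1697841 (−3.64), Papolb (−3.49), Olfr811 (−3.43), Olfr722 (−3.29) and Myh4 (−2.81). Rbp2, Epha6, Tgm6, Olfr1221, Olfr649 and Myf6 were not well above background on any wild-type fat array. Btg4, Papolb, Olfr811 and Olfr722 were not on any muscle array of either genotype or any Akt1+/- fat array, and TC1697841 was not on any wild-type muscle array. The sizes and order of these values therefore rest on signal at background. At 35 weeks genotype cannot be told apart from slide or, in fat, from scan day. Tgm6, Olfr1221 and Olfr649 were not tested in the comparison of muscle with fat, and names beginning with Olfr are olfactory receptors.

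It differed by age within wild type in 1425 genes, with values at 35 weeks minus those at 8 weeks. It was larger at 35 weeks for NAP029777-1 (4.61), 1700123L14Rik (4.33), Dct (3.96), Rab44 (3.93), Rhox9 (3.74), Myl2 (3.53), Tnnc1 (2.65), Myh7 (2.63), Tnni1 (2.45), Tnnt1 (2.34), Casq2 (2.31), Hoxb6 (2.22), Myf6 (1.72), Atp2a2 (1.69), Ucp3 (1.29), Pde3b (1.20), Akt2 (0.67), Suclg2 (0.48) and Atp2a1 (0.47). Among these, Myl2, Tnnc1, Myh7, Tnni1, Tnnt1, Casq2 and Atp2a2 are genes of slow fibres. It was smaller at 35 weeks for ENSMUST00000103416 (−5.53), 4930451I11Rik (−4.85), Myh4 (−4.61), C130026I21Rik (−4.41), an immunoglobulin κ segment (−4.24), Pvalb (−3.92), Myh8 (−3.41), Actc1 (−2.62), Ckm (−2.27), Tnnt3 (−2.24), Tnni2 (−2.24), Rpl3l (−2.16), Cacna1s (−1.56), Mybpc2 (−1.45) and Papolb (−1.35). ENSMUST00000103416 is an immunoglobulin heavy chain transcript, and Myh4, Pvalb, Tnni2, Tnnt3 and Mybpc2 belong to fast fibres. At least 1 of the 4 groups behind each of 1700123L14Rik, Rab44, Rhox9, ENSMUST00000103416, 4930451I11Rik, C130026I21Rik and the κ segment was not well above background on any array. Myh4, Pvalb and Ckm were at background on most or all 8-week fat arrays. Myf6, Myl2 and Tnni1 were at background in 35-week fat, and Papolb in muscle of both ages. The sizes and order of these values are therefore not exact. Slide and scan day differed between the ages and cannot be told apart from age.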

How the results depend on the processing

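With normexp and quantile normalization 6180 genes were called in place of 9684, 2597 higher in muscle and 3583 higher in fat, and 60.3% of the original calls were made again. Detection by a significant positive signal gave 175 genes in muscle only and 355 in fat only. The count by genotype was 136 with median scaling, and the count by age 2161 with normexp and quantile normalization; the cause was not tested. When a gene's probes were averaged, 4 named genes changed sign, Acta2 to −0.49, Asph to −0.12, Mbp to 0.37 and Tpm3 to 1.54. Leaving out 1 array in turn gave 9599 to 9721 called genes, 4227 to 4389 higher in muscle and 5284 to 5420 higher in fat, 14890 to 15147 past the adjusted p, 509 to 520 called list members, 271 to 277 called named genes, 81 to 88 called markers, 373 to 484 and 809 to 1090 genes detected in muscle or fat only, 161 to 291 by genotype and 767 to 1469 by age. Of 315 single genes, 51 were no longer called with normexp and quantile normalization, 41 with a test against a 2-fold difference, 9 with median scaling and, with the mean of probes, 5 besides Acta2, Asph and Mbp. The median of 5 of 42 lists changed sign under at least 1 alternative: adipogenic regulators, cytosolic ribosomal proteins, lymphocyte, ovarian somatic, and phosphocreatine and adenylate. The replicate numbers of the 8 arrays were slide positions; deviations of arrays of the same number correlated at 0.0136 to 0.195 and of other numbers at −0.136 to 0.104, and since the labels state no pairing and the same-number values were not all above 0.1 they were not taken as pairs; with the replicate block 9695 genes were called, 9660 of them also without it, with 284 by genotype and 1667 by age. Dim probes limit the rest: of the called genes, 491 higher in muscle and 981 higher in fat were not well above background on any array of the other tissue.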
